A study of Mus musculus with 6 samples.

Results

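The genes described here encode the axoneme, the microtubule core of the cilium, and proteins that assemble it. They are the genes of the deposited counts table whose symbols begin with Dnah, Dnai, Dnaaf, Rsph, Cfap or Tekt and a number, together with 10 named genes, Ccdc39, Ccdc40, Ccdc153, Tppp3, Sntn, Pifo, Spag17, Mcidas, Ccno and Deup1. At least 10 reads summed over the 6 libraries were required, which left 87 genes of 55335 rows in the table. A further 4 rows matched by symbol and fell below that minimum. Cfap97d1 and Dnaaf6 were listed at 0 reads in every library, Cfap107 had 2 reads in all and Rsph6a had 1.

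The libraries come from whole lungs of mouse embryos at embryonic day 18, 1 library per embryo. The Gata4 CKO group holds 3 embryos of genotype Prx1Cre;Gata4 F/D, with 1 floxed and 1 deleted Gata4 allele, and the control group holds 3 embryos of genotype Prx1Cre;Gata4 F/+, with 1 floxed and 1 intact allele. Both groups carry Prx1Cre, which expresses Cre recombinase in the lateral plate mesoderm, a source of diaphragm connective tissue, and the submitters describe diaphragm defects and small lungs in the Gata4 CKO embryos. The comparison asks how expression in such lungs differs from that in control lungs. The labels call the libraries biological replicates, so p-values set the group difference against the spread between libraries of different embryos.

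Motile cilia of the airways stand on multiciliated epithelial cells and move mucus along the airway surface. Each is built on 9 outer microtubule doublets around a central pair. Outer and inner dynein arms on the doublets produce the beat, radial spokes and nexin links regulate it, and tektins and other proteins lie inside the doublet wall. Mcidas and Ccno act earlier, when a precursor cell makes its many centrioles. The airway epithelium derives from endoderm, outside the lineage in which Prx1Cre is known to act. By the genotypes above, however, Gata4 CKO embryos carry the deleted allele also in cells without Cre, and controls do not. In RNA from whole lung, a smaller number of cells of a type and less RNA per cell cannot be told apart, and the same holds for increases.

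Gata4 CKO 1, 2 and 3 had total counts of 20833883, 15156415 and 29749277, and controls 1, 2 and 3 had 21295440, 20851989 and 30848948. The targeted gene Gata4 had 117, 76 and 97 reads in the libraries labelled Gata4 CKO and 84, 63 and 90 reads in those labelled control. It was thus not lower where the labels give the deletion (log2 fold change 0.49 ± 0.28 SE, edgeR adjusted p = 0.671). Reads from exons that the deletion leaves in place may be among these counts, and the check of the labels is a weak one. Gata4 CKO 1 stands apart from the other libraries. Across 17063 tested genes its log2 difference from the control mean declined with transcript length (Spearman's rho -0.51, across genes that share a library), whereas rho lay between -0.04 and 0.02 in the other 5 libraries. Values without Gata4 CKO 1 are therefore also given for the axoneme genes as a set and for part of the single genes. A number inside the authors' column names, whose meaning is not given, is 4229 for Gata4 CKO 1 and controls 1 and 2, 4723 for Gata4 CKO 2 and 3, and 4503 for control 3.

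Promoters of several axoneme genes are shown because factors of the RFX family and FOXJ1 are known to regulate genes of motile cilia, and because genes with unlike fold changes are set side by side below. RFX factors bind the X-box, an inverted repeat. Windows of 250 bases before to 50 bases after a transcription start came from RefSeq on GRCm38.p6 and were matched by symbol or gene ID. Of the 87 genes, 71 had at least 1 window, giving 81 windows. Where a gene had more than 1 window, one with a match was chosen for printing. Pifo, Deup1 and Tekt1 each have another window that holds no match. The printed Pifo window lies inside the gene model, and the window at the 5′ end of that model is the one without a match. The 250 bases before the start are printed 5′ to 3′ on the strand of the gene, with X-box matches in capitals for Pifo, Cfap44, Ccno and Deup1, and half-site matches in capitals for Sntn and Tekt1. The windows are chr3:106001498-106001747 (Pifo, minus strand), chr16:44394549-44394798 (Cfap44, plus strand), chr13:112987552-112987801 (Ccno, plus strand), chr9:15627847-15628096 (Deup1, minus strand), chr14:13670626-13670875 (Sntn, plus strand) and chr11:72361883-72362132 (Tekt1, minus strand).
Pifo: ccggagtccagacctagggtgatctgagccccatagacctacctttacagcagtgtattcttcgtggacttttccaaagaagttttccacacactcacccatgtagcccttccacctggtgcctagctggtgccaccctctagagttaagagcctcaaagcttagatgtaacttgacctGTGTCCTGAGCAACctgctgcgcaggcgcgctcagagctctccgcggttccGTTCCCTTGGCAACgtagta
Cfap44: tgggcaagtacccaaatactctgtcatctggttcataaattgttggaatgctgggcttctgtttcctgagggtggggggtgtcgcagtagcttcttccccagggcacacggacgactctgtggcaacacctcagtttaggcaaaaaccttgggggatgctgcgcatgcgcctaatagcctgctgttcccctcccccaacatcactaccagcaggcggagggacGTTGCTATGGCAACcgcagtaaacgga
Ccno: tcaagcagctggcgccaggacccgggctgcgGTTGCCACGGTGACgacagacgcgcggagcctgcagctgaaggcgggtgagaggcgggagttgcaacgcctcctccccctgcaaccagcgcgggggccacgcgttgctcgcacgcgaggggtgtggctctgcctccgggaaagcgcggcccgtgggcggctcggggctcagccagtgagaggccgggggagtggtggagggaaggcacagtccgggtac
Deup1: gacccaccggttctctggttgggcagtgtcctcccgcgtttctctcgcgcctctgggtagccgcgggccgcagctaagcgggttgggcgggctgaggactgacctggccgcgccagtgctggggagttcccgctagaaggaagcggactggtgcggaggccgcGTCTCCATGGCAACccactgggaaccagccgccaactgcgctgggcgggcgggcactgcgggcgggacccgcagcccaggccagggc
Sntn: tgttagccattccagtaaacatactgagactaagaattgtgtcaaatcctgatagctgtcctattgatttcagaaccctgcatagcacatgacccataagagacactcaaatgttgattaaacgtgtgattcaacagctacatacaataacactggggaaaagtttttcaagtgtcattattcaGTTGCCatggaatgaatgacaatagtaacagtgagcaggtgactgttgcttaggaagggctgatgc
Tekt1: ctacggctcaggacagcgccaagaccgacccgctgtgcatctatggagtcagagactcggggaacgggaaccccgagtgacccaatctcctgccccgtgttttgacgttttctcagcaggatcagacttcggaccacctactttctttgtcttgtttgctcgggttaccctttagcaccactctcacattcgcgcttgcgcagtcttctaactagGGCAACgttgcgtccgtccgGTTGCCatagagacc

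The X-box was searched as GTNNCC followed after any 3 bases by GNAAC, with N for any base, on both strands and was found in 15 of the 81 axoneme windows (18.5%). It occurred in 2.17% of all 32851 windows of the same length and in 2.75% of the 15374 windows of tested genes. The RFX half-site, searched as GTTGCC on both strands, was in 33 axoneme windows (40.7%), against 12.5% of all windows and 12.8% of those of tested genes. Both searches can hit the same bases, and 10 of the 15 windows with an X-box also held a half-site. The forkhead motif TGTTTAC, again on both strands, was in 5 axoneme windows (6.17%), against 3.65% of all windows and 2.78% of those of tested genes. A match describes the letters and is not a binding site, and no match says only that these letters are not in this window. In the printed windows the copy of Pifo nearest the start, GTTCCCTTGGCAAC, began 20 bases before it, and that of Cfap44, GTTGCTATGGCAAC, began 27 bases before it. The Ccno match, GTTGCCACGGTGAC, lay 219 bases before the start.

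Axoneme genes were readily detected. Their mean level over the 6 libraries ran from 0.162 to 123 CPM (reads of a gene relative to the scaled size of its library), with a median of 14.1 CPM, and 58 of the 87 exceeded 10 CPM. On a scale per kilobase of exon, Tppp3, a tubulin-binding protein, had the highest level of the 86 genes with a gene model, at 80.3 CPM per kb in Gata4 CKO and 53.2 CPM per kb in control lungs. Cfap298, which takes part in dynein assembly, and Rsph1, a protein of the radial spoke head, came next, at 23.6 and 22.2 CPM per kb in Gata4 CKO and 20.6 and 16.3 CPM per kb in control lungs. Cfap298 shares 703 exon bases (44.2% of its exon length) with Gm49727 on the opposite strand, so its level is uncertain. Its log2 fold change was 0.20 with all libraries and 0.01 without Gata4 CKO 1. At the low end, Dnah14 and Dnah17, a heavy chain known from sperm, lay near 0.01 CPM per kb in both groups and did not pass the count filter. The other 85 genes entered the test.

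Summed over all 87 genes, axoneme RNA came to 1582, 1992 and 1940 CPM in Gata4 CKO 1, 2 and 3, against 1397, 1317 and 1686 CPM for controls 1, 2 and 3. The means were 1838 ± 223 CPM in Gata4 CKO and 1467 ± 194 CPM in control lungs (SD, n = 3 each). Gata4 CKO 2 and 3 lay above every control, while Gata4 CKO 1 lay between control 3 and the other controls. Of the 85 tested genes, 75 had a positive log2 fold change, against 51.5% of all 17075 tested genes. Their median log2 fold change was 0.35, against 0.01 over all tested genes.

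No single axoneme gene passed the threshold. The edgeR quasi-likelihood test, with Benjamini-Hochberg adjustment over all tested genes, called 0 of the 85 (0% of all tested genes were called), and the smallest adjusted p was 0.529. At an unadjusted p under 0.05, 14 axoneme genes were higher and 0 were lower in Gata4 CKO, beside 3.77% and 4.91% of all tested genes. All 3 Gata4 CKO libraries exceeded all 3 controls for 18 axoneme genes, beside 7.69% of all tested genes in that direction. The reverse order was found for 1 axoneme gene, Dnaaf9, beside 9.08% of all tested genes. DESeq2 called 1 axoneme gene, Pifo, as higher (adjusted p = 0.0496), beside 0.293% of all tested genes. Without Gata4 CKO 1, edgeR called 115 genes in all (0.428% of tested genes as higher and 0.228% as lower) and still 0 axoneme genes, while DESeq2 called 19 axoneme genes as higher and 0 as lower, beside 4.29% and 5.37% of all tested genes. The median log2 fold change of the axoneme genes was then 0.44.

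**Figure D1:**
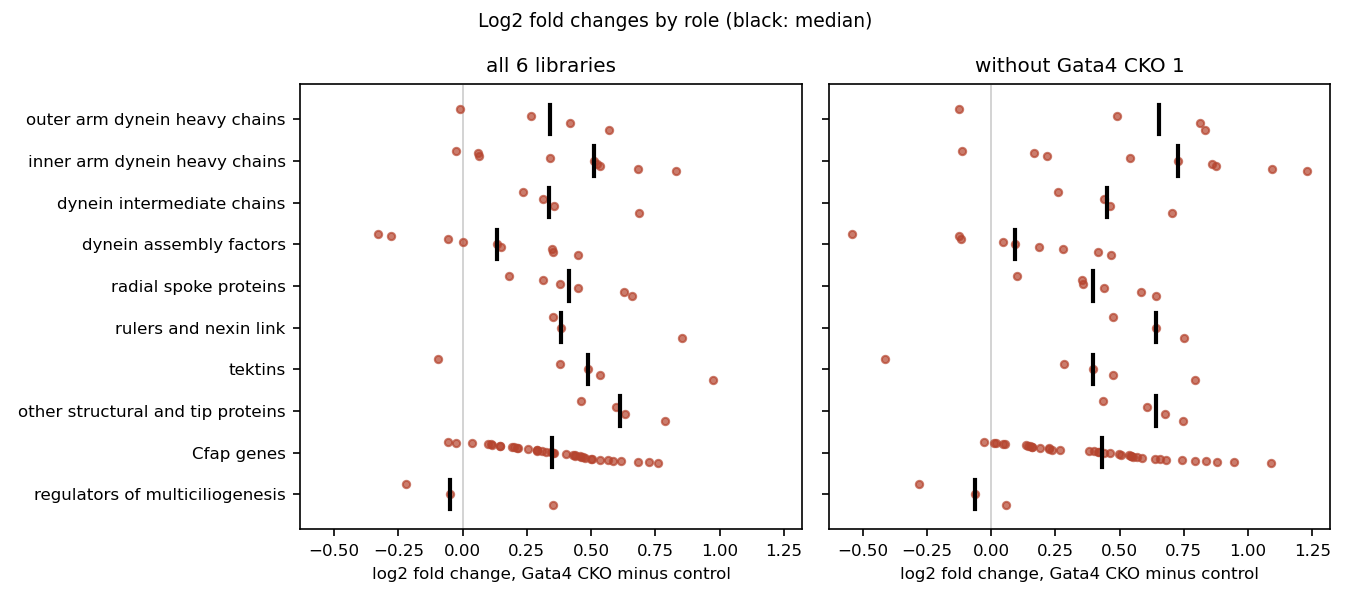
Log2 fold changes (Gata4 CKO minus control, edgeR, horizontal axis) of the tested axoneme genes by role (rows), with all 6 libraries in the left panel and without Gata4 CKO 1 in the right panel. Each point is 1 gene and the black bar is the median of the role. Regulators of multiciliogenesis had a median of -0.05 with all libraries, and the inner arm dynein heavy chains had 0.51, which became 0.73 without Gata4 CKO 1.

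Among the heavy chains of the outer dynein arms, the motor proteins that set beat frequency, 3 of 4 tested genes had a positive log2 fold change, with a median of 0.34. Dnah5 (ENSMUSG00000022262, chromosome 15, 28203752 to 28472052, plus strand, GRCm38), whose loss causes primary ciliary dyskinesia, had 12.7, 54.7 and 48.9 CPM in Gata4 CKO and 24.8, 21.7 and 40.4 CPM in control lungs, in the order of the replicate numbers here and below. Gata4 CKO 1 lay below every control, and Gata4 CKO 2 and 3 lay above every control, so the groups overlapped. The edgeR fit put the log2 fold change at 0.42 ± 0.49 SE, with an adjusted p of 0.837. Single libraries set its size, since it was 0.83 without Gata4 CKO 1 (edgeR adjusted p = 0.156) and 0.73 without control 3, but 0.094 without Gata4 CKO 2, 0.21 without Gata4 CKO 3 and 0.25 without control 2. It was -0.87 among the 3 libraries numbered 4229. Dnah9 and Dnah11, the other heavy chains of airway outer arms, had log2 fold changes of 0.57 and 0.27, and Dnah8, an outer arm heavy chain known mainly from sperm, had -0.01.

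Inner arm heavy chains shape the bend of the cilium. Of 9 tested genes, 8 had a positive log2 fold change. Dnah12 (ENSMUSG00000021879, chromosome 14, 26693274 to 26891703, plus strand) had 16.6, 62.4 and 59.9 CPM in Gata4 CKO and 21.5, 22.0 and 34.4 CPM in control lungs. Gata4 CKO 2 and 3 were above all controls and Gata4 CKO 1 was below them. Its log2 fold change was 0.83 with all libraries and 1.23 without Gata4 CKO 1, where the edgeR adjusted p was 0.0636, the smallest among axoneme genes in that setting. Dnah3 and Dnah6 had log2 fold changes of 0.68 and 0.52, and Dnah1, Dnah2 and Dnah10 lay between -0.03 and 0.06. The copies Dnah7a, Dnah7b and Dnah7c had 0.34, 0.51 and 0.53. Their transcripts share 40.3%, 48.4% and 48.5% of 50-base stretches with the other copies, so the split of reads between them is uncertain.

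Dynein intermediate chains, which hold the arms on the doublets, were positive in 4 of 4 genes, with a median log2 fold change of 0.34. Dnai1 (ENSMUSG00000061322, chromosome 4, 41569775 to 41638158, plus strand), of the outer arm, had 10.8, 11.6 and 10.8 CPM in Gata4 CKO and 6.62, 5.61 and 8.32 CPM in control lungs. All 3 Gata4 CKO libraries were above all controls and close to each other, with means of 11.1 ± 0.45 and 6.85 ± 1.37 CPM (SD, n = 3 each). Its log2 fold change of 0.69 ± 0.20 (SE) had an edgeR adjusted p of 0.529, and it was 0.70 without Gata4 CKO 1.

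Factors that assemble dyneins in the cytoplasm had a median log2 fold change of 0.13 over 9 tested genes. Dnaaf1 and Dnaaf3 had 0.35 each, and Dnaaf2, Dnaaf5 and Dnaaf10 had 0.00, 0.13 and -0.06. Dnaaf1, Dnaaf2, Dnaaf3 and Dnaaf10 share up to 20.7%, 32.7%, 12.6% and 18.5% of exon length with another gene, so their values are uncertain. Dnaaf9 (ENSMUSG00000027309, chromosome 2, 130706200 to 130906406, minus strand), the counterpart of a dynein-packaging factor known from Tetrahymena, had 71.0, 102 and 105 CPM in Gata4 CKO and 111, 113 and 113 CPM in control lungs. The Gata4 CKO values were all lower, with Gata4 CKO 1 lowest, and the log2 fold change of -0.28 ± 0.18 (SE) had an edgeR adjusted p of 0.689, or -0.12 without Gata4 CKO 1. Dnaaf8 had the lowest log2 fold change of all axoneme genes, -0.33 ± 0.30 (SE, edgeR adjusted p = 0.784), at 2.67 ± 0.65 CPM in Gata4 CKO and 3.36 ± 0.86 CPM in control lungs (SD, n = 3 each), and the value was -0.11 without control 1 and -0.54 without Gata4 CKO 1. The gene model used here classes Dnaaf8 as a transcribed unitary pseudogene in the mouse, not as a protein-coding gene.

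Radial spoke genes were higher in 6 of 6 cases by the sign of the log2 fold change, with a median of 0.41, and 4 of the 6 were higher without overlap between groups, beside 7.69% of all tested genes. Rsph1 (ENSMUSG00000024033, chromosome 17, 31255019 to 31277383, minus strand) had 34.2, 28.7 and 28.4 CPM in Gata4 CKO and 23.2, 19.6 and 24.1 CPM in control lungs. Each Gata4 CKO library was above each control, and a log2 fold change of 0.45 ± 0.16 (SE) was found (edgeR adjusted p = 0.529). Without Gata4 CKO 1, the highest library, this value was 0.36. Rsph9 and Rsph14, at 0.63 and 0.66 (0.44 and 0.64 without Gata4 CKO 1), also had each Gata4 CKO library above each control. Rsph4a, a spoke head gene with a longer transcript, had 17.3, 37.4 and 34.8 CPM in Gata4 CKO and 23.3, 19.4 and 29.4 CPM in control lungs, with Gata4 CKO 1 again lowest of all. Rsph3a and Rsph3b share 74.0% and 75.8% of their 50-base stretches with each other, and their separate values of 0.38 and 0.18 are uncertain.

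Ccdc39 and Ccdc40 form the ruler that sets the axonemal repeat, and Ccdc153 belongs to the nexin link. Ccdc39 (ENSMUSG00000027676, chromosome 3, 33812362 to 33844310, minus strand) had 24.9, 57.1 and 52.7 CPM in Gata4 CKO and 32.8, 31.2 and 41.6 CPM in control lungs. Gata4 CKO 1 lay below and Gata4 CKO 2 and 3 above all controls, and a log2 fold change of 0.35 ± 0.30 (SE) was found (edgeR adjusted p = 0.774). This value was 0.64 without Gata4 CKO 1, 0.15 without Gata4 CKO 2 and 0.22 without Gata4 CKO 3. Ccdc39 shares 1256 exon bases (16.9% of its exon length) with Ttc14 on the opposite strand, and the strand setting of the counting is not given in the sources used here. Ccdc40 had 22.0, 27.5 and 26.7 CPM in Gata4 CKO and 18.9, 16.1 and 23.5 CPM in control lungs, which overlapped only through Gata4 CKO 1 and control 3 (log2 fold change 0.38 ± 0.19 SE, edgeR adjusted p = 0.618). Ccdc153 (ENSMUSG00000070306, chromosome 9, 44240676 to 44247306, plus strand) had 40.7, 39.3 and 27.9 CPM in Gata4 CKO and 24.4, 13.96 and 21.3 CPM in control lungs. Its groups did not overlap, and it had the highest log2 fold change of the tested axoneme genes at 1 CPM or more, 0.85 ± 0.25 (SE, edgeR adjusted p = 0.529). Without Gata4 CKO 1 the log2 fold change of Ccdc153 was 0.75.

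Tektins, filament proteins in the lumen of the doublets, were positive in 4 of 5 genes. Tekt1 (ENSMUSG00000020799, chromosome 11, 72344722 to 72362442, minus strand), with 2 half-site matches in its printed window and none in its other window, had 24.6, 19.2 and 23.9 CPM in Gata4 CKO and 14.3, 15.6 and 16.9 CPM in control lungs. The groups did not overlap, and a log2 fold change of 0.53 ± 0.17 (SE) was found (edgeR adjusted p = 0.529), or 0.47 without Gata4 CKO 1. Tekt2 and Tekt4 had 0.49 and 0.38 with overlap, Tekt5, known mainly from sperm, had -0.10, and Tekt3 had 0.98 at only 1.06 ± 0.26 CPM in Gata4 CKO and 0.52 ± 0.26 CPM in control lungs (SD, n = 3 each).

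Pifo, Sntn and Tppp3, grouped here with Spag17 as other structural proteins, did not overlap between groups. Pifo (ENSMUSG00000010136, chromosome 3, 105996957 to 106014646, minus strand), a ciliary protein, had 16.5, 11.6 and 11.7 CPM in Gata4 CKO and 7.70, 7.92 and 7.47 CPM in control lungs. Its printed window, inside the gene model, holds 2 X-box matches, and the window at the upstream end of that model holds none. The lowest Gata4 CKO value was well above the highest control, and a log2 fold change of 0.79 ± 0.20 (SE) was found (edgeR adjusted p = 0.529), or 0.61 without Gata4 CKO 1, which was the highest library. Sntn (ENSMUSG00000044772, chromosome 14, 13670876 to 13683148, plus strand), which encodes sentan of the ciliary tip, had 11.6, 12.8 and 12.6 CPM in Gata4 CKO and 8.35, 6.91 and 8.61 CPM in control lungs. Here all 3 Gata4 CKO libraries were alike, and a log2 fold change of 0.63 ± 0.17 (SE) was found (edgeR adjusted p = 0.529), or 0.67 without Gata4 CKO 1.

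Tppp3 (ENSMUSG00000014846, chromosome 8, 105467493 to 105471526, minus strand) had 179, 136 and 130 CPM in Gata4 CKO and 91.7, 82.2 and 121 CPM in control lungs. The groups did not overlap, with control 3 close below the lowest Gata4 CKO library. A log2 fold change of 0.59 ± 0.20 (SE) was found (edgeR adjusted p = 0.529), or 0.44 without Gata4 CKO 1, the highest library. Spag17, of the central pair, had 13.1, 30.6 and 26.6 CPM in Gata4 CKO and 16.0, 13.8 and 21.1 CPM in control lungs. Gata4 CKO 1 was lowest of all 6 libraries, and a log2 fold change of 0.46 ± 0.32 (SE) was found (edgeR adjusted p = 0.717). The value became 0.75 without Gata4 CKO 1 and 0.24 without Gata4 CKO 2.

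The 38 Cfap genes, a mixed family named for proteins associated with cilia and flagella, had a positive log2 fold change in 36 cases, with a median of 0.35, and 7 were higher without overlap between groups, beside 7.69% of all tested genes. Cfap91, of the base of the radial spokes, had 16.3 ± 2.00 CPM in Gata4 CKO and 11.0 ± 1.59 CPM in control lungs (SD, n = 3 each; log2 fold change 0.57). Cfap126 and Cfap53 had 0.58 and 0.68, or 0.44 and 0.79 without Gata4 CKO 1. Cfap20, of the inner junction of the doublet, had 0.29 with Gata4 CKO values of 69.6 to 73.1 CPM and control values of 54.1 to 60.7 CPM. Cfap44, whose window is shown above, followed the order seen in Dnah5, with 13.0, 54.9 and 47.8 CPM in Gata4 CKO and 22.6, 21.6 and 35.4 CPM in control lungs. The 2 negative values were those of Cfap36 (-0.055 ± 0.14 SE, edgeR adjusted p = 0.930) and Cfap97 (-0.02).

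The 3 regulators of multiciliogenesis had a median log2 fold change of -0.05, with 1 positive. Mcidas (ENSMUSG00000074651, chromosome 13, 112993845 to 113000394, plus strand), a coactivator that starts the multiciliated programme, had 5.62, 3.31 and 6.21 CPM in Gata4 CKO and 6.62, 6.91 and 4.26 CPM in control lungs. Deup1 (ENSMUSG00000039977, chromosome 9, 15559864 to 15627933, minus strand), the scaffold of the deuterosome on which centrioles form, had 10.6, 10.1 and 15.9 CPM in Gata4 CKO and 14.9, 12.8 and 10.3 CPM in control lungs. In both genes the groups overlapped, with log2 fold changes of -0.22 ± 0.31 and -0.05 ± 0.24 (SE, edgeR adjusted p = 0.861 and 0.968), and both values changed sign when certain single libraries were left out. Ccno (ENSMUSG00000042417, chromosome 13, 112987802 to 112990777, plus strand), a cyclin needed for deuterosome formation and the neighbour of Mcidas, had 33.1, 14.7 and 18.2 CPM in Gata4 CKO and 17.8, 16.1 and 17.9 CPM in control lungs. Only Gata4 CKO 1 was clearly high, and the log2 fold change of 0.35 ± 0.29 (SE, edgeR adjusted p = 0.763) became -0.06 without it. Ccno and Deup1 hold X-box matches in their printed windows as Pifo and Cfap44 do. The 14 tested axoneme genes with an X-box had a median log2 fold change of 0.28, and the 55 with a window and no X-box had 0.38. Whether the regulators differ from the structural genes was not tested.

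**Figure D2:**
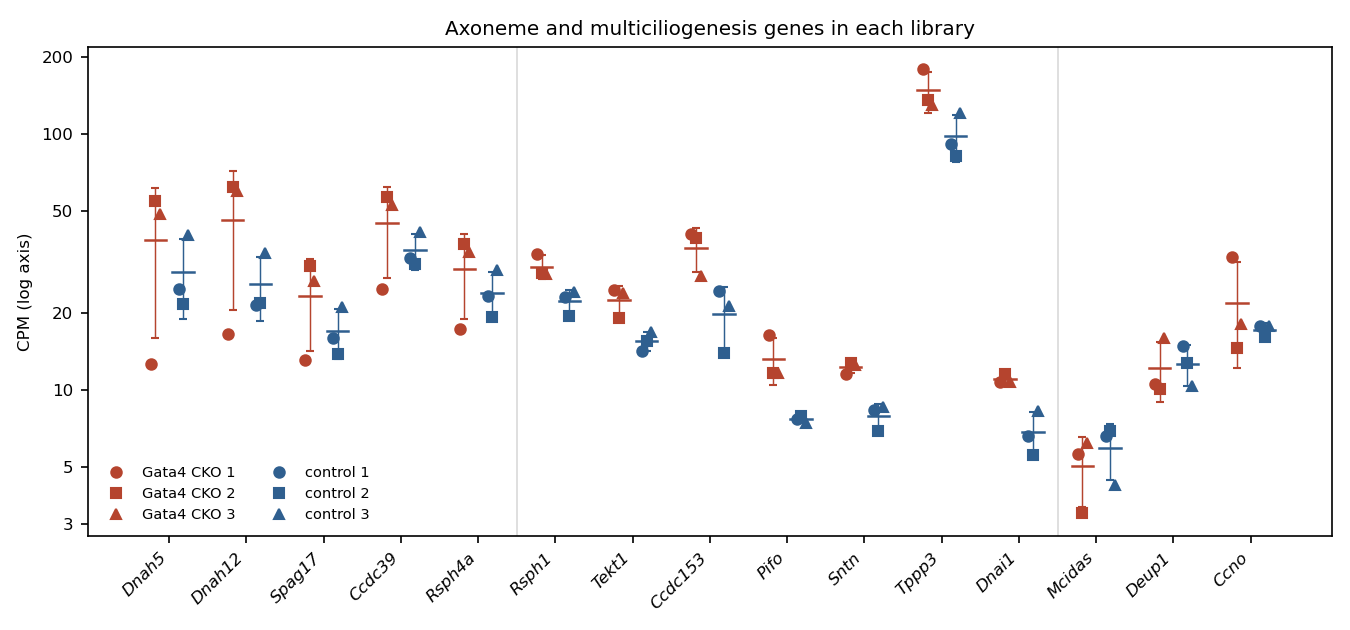
Levels in CPM (vertical log axis) of 15 genes in each library, with Gata4 CKO in red to the left of control in blue for each gene, and bars for the mean ± SD (n = 3 each). The 5 genes at the left have transcripts over 3.6 kb and show Gata4 CKO 1 below the other Gata4 CKO libraries, the 7 in the middle have shorter transcripts and do not overlap between groups, and the 3 at the right are regulators and overlap. The genes were chosen with results of these data known and do not represent all genes of their length. Dnah1 and Dnah8, not shown, have long transcripts and were highest in Gata4 CKO 1 among the Gata4 CKO libraries. Higher without overlap were 9 of 24 axoneme genes under 2 kb and 9 of 36 from 2 to 5 kb, beside 7.69% of all tested genes.

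In Gata4 CKO 1 the difference of axoneme genes from the control mean declined with transcript length (Spearman's rho -0.67 across 84 genes that share a library). Among the 24 tested axoneme genes with transcripts under 2 kb, the median log2 difference from the control mean was 0.53, 0.38 and 0.47 in Gata4 CKO 1, 2 and 3. Among the 13 with transcripts of 10 kb and over, it was -0.30, 0.76 and 0.71. All 18 axoneme genes that were higher without overlap had transcripts under 5 kb, 9 in the shortest band and 9 between 2 and 5 kb, and no axoneme gene in the longer bands was higher without overlap. Of all tested genes, 529 of 4695 under 2 kb and 717 of 8933 from 2 to 5 kb were higher without overlap. From 5 to 10 kb these were 64 of 3045, and at 10 kb and over 2 of 390, so such genes were few among long transcripts in general.

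Set against other genes of the same length, axoneme genes were higher in each Gata4 CKO library. In Gata4 CKO 1, the median of other tested genes was 0.41 under 2 kb, 0.01 from 2 to 5 kb, -0.52 from 5 to 10 kb and -0.79 at 10 kb and over. The median of the axoneme genes exceeded it in the 4 bands by 0.13, 0.20, 0.27 and 0.49 in Gata4 CKO 1, by 0.37, 0.29, 0.53 and 0.59 in Gata4 CKO 2 and by 0.45, 0.32, 0.58 and 0.59 in Gata4 CKO 3. In control 3 the excess was 0.13, 0.21, 0.33 and 0.37, so that 1 control overlapped with Gata4 CKO 1 on this measure, while controls 1 and 2 lay below other genes in every band. With a trend in length and GC content removed from every library, the median log2 fold change was 0.36 and edgeR called 0 axoneme genes. With that offset and without Gata4 CKO 1 it again called 0 axoneme genes, beside 0.103% of all tested genes as higher and 0.126% as lower. These medians are descriptions over genes that share a library and carry no test.

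**Figure D3:**
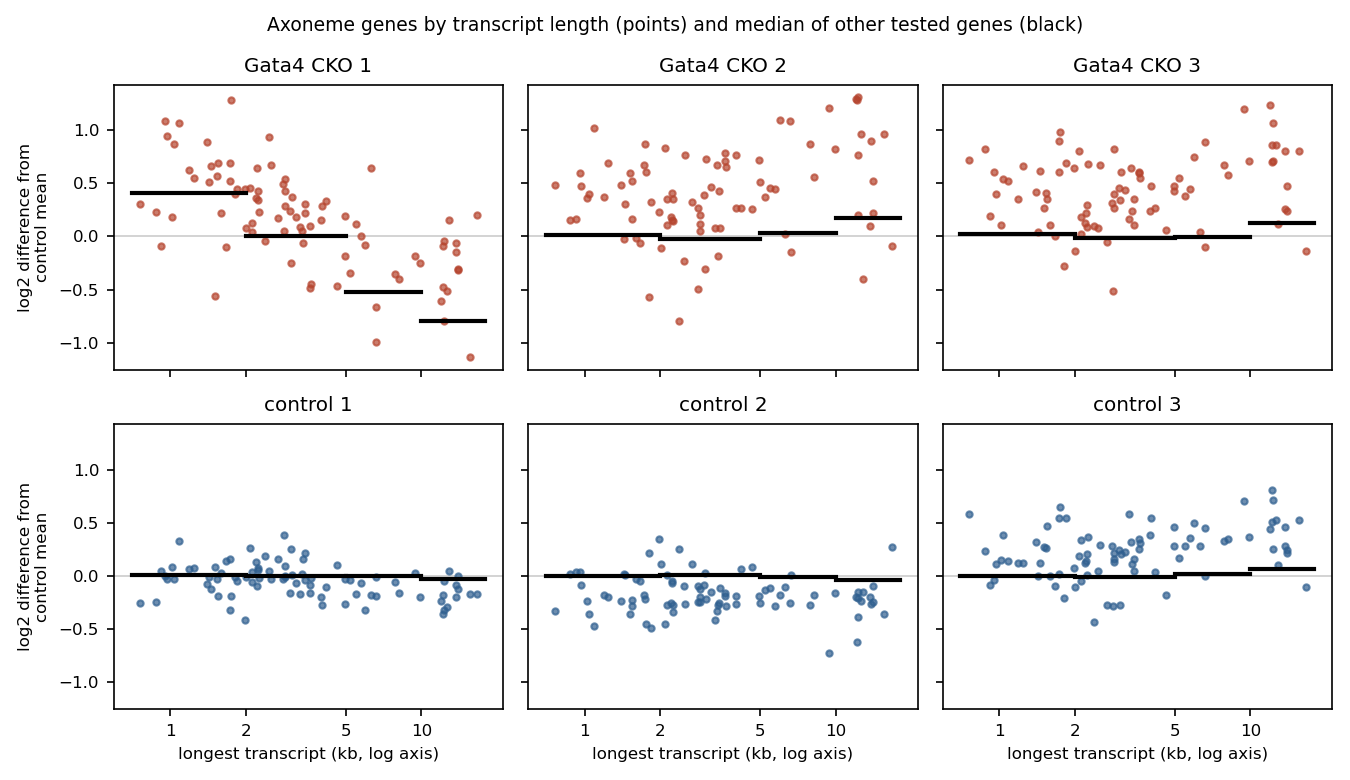
Log2 difference from the control mean (vertical axis) against the length of the longest transcript in kb (horizontal log axis) for the tested axoneme genes, 1 panel per library with Gata4 CKO above control. Points are genes and black lines are medians of all other tested genes in 4 length bands. In Gata4 CKO 1 both decline with length, the black line to -0.79 at 10 kb and over, while in Gata4 CKO 2 and 3 the points lie mostly above 0 at every length.

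Other genes of the motile cilium, taken from a list that holds none of the 87 genes, leaned in the same direction. Of 44 tested genes 43 had a positive log2 fold change, with a median of 0.37, 12 were higher and 0 lower at an unadjusted p under 0.05, beside 3.77% and 4.91% of all tested genes, and edgeR called 0. Drc1, of the nexin link, had 24.9, 23.6 and 24.0 CPM in Gata4 CKO and 16.3, 11.8 and 18.2 CPM in control lungs. The groups did not overlap, and a log2 fold change of 0.64 ± 0.19 (SE) was found (edgeR adjusted p = 0.529). Nme5, of the radial spokes, and Spag6l, of the central pair, had 0.58 and 0.51, also without overlap.

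Lists shared with non-motile cilia had smaller medians. Intraflagellar transport genes, which carry cargo along every kind of cilium, were positive in 21 of 29 cases with a median of 0.14, and Dync2li1 and Cluap1 had log2 fold changes of 0.38 and 0.39. BBSome genes, which traffic membrane proteins, were positive in 7 of 13 cases with a median of 0.07, and Bbs2 had 0.35. In both lists edgeR called 0 genes.

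Lists upstream of the axoneme had medians at or below 0. Centriole amplification genes were positive in 4 of 14 cases, with a median log2 fold change of -0.13. The lowest were Stil and Plk4, at -1.07 and -0.83, which also serve centriole duplication in dividing cells. The 12 genes of multiciliated transcription, 6 of them positive, had a median of 0.00. Foxj1, the factor that drives motile cilium genes, had 86.8, 68.7 and 68.5 CPM in Gata4 CKO and 59.1, 51.0 and 72.5 CPM in control lungs. Control 3 lay within the Gata4 CKO range, and a log2 fold change of 0.29 ± 0.18 (SE) was found (edgeR adjusted p = 0.681). Tfdp1 had -0.71 and Rfx1 had -0.35 (edgeR adjusted p = 0.529 and 0.546).

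Markers of other cell types also differed between the libraries. The 5 markers of club cells, the secretory neighbours of multiciliated cells, were all positive, with a median log2 fold change of 0.70, and summed to 3409, 3409 and 3082 CPM in Gata4 CKO and to 1460, 1578 and 2802 CPM in control lungs. Markers of epithelium as a whole were positive in 6 of 7 cases with a median of 0.19, but summed to 1985, 1479 and 1452 CPM in Gata4 CKO and to 1588, 1493 and 1367 CPM in control lungs, so that only Gata4 CKO 1 stood out. Alveolar type 2 markers were positive in 5 of 5 cases (median 0.58), and their sum in control 3, 16663 CPM, was close below that in Gata4 CKO 3, 16857 CPM. As with club cells, alveolar type 2 cells and cycling cells, the summed levels of 3 further lists did not overlap between groups. Macrophage markers, positive in 3 of 3 cases with a median of 0.72, summed to 99.9, 83.9 and 87.0 CPM in Gata4 CKO and to 68.6, 56.3 and 71.9 CPM in control lungs. Mesenchyme markers, negative in 4 of 5 cases with a median of -0.33, summed to 2432, 2004 and 2174 CPM in Gata4 CKO and to 2882, 2941 and 2591 CPM in control lungs. Endothelium markers, negative in 3 of 3 cases with a median of -0.27, summed to 1544, 1474 and 1625 CPM in Gata4 CKO and to 1770, 1843 and 1997 CPM in control lungs. These lists thus differed alongside the axoneme genes. Sums of alveolar type 1, neuroendocrine, mesothelium, erythroid and cardiomyocyte markers overlapped between groups. Their median log2 fold changes were 0.03, 0.21, 0.06, -0.03 and 0.40. The 4 markers of cycling cells were all negative, with a median of -1.19 and sums of 252, 161 and 253 CPM in Gata4 CKO and of 594, 617 and 276 CPM in control lungs. Control 3 was thus near the Gata4 CKO libraries in cycling and club cell markers as well as in summed axoneme RNA. The basal cell markers Krt5 and Trp63 lay at or under 1.26 CPM in every library. Together with Krt15, which held most of the reads, the 3 basal markers had overlapping sums. These were 57.3, 47.9 and 61.0 CPM in Gata4 CKO and 55.5, 62.2 and 37.0 CPM in control lungs. The part of cell composition in the axoneme values was not tested, and edgeR called 0 genes in any of these lists.

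**Figure D4:**
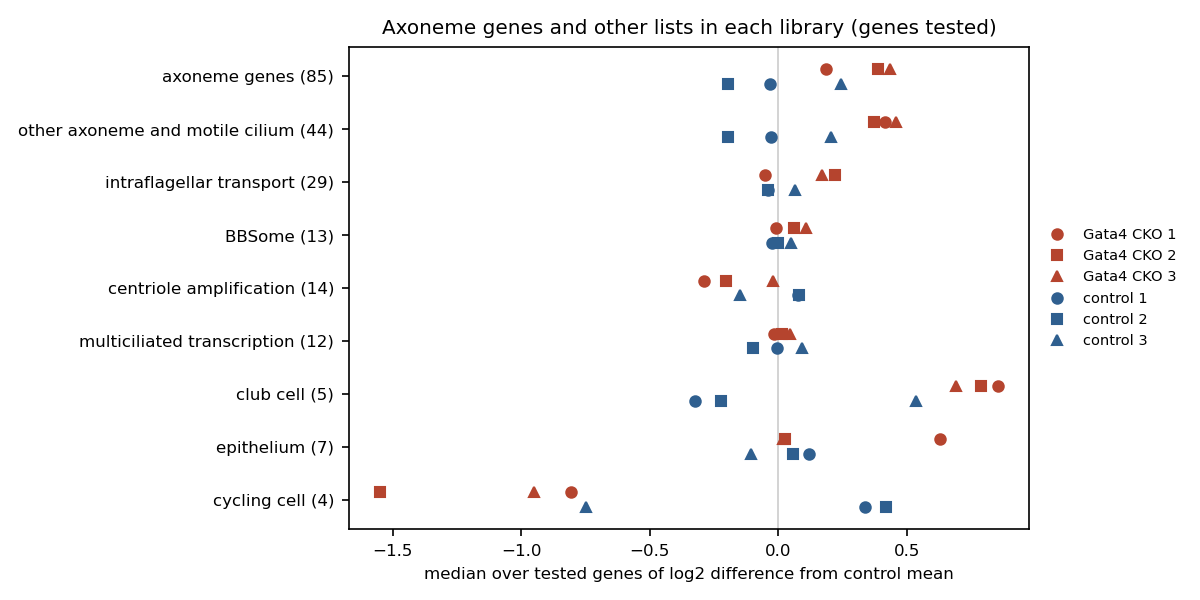
Median over tested genes of the log2 difference from the control mean (horizontal axis) in each library for the axoneme genes and for other lists (rows, number of tested genes in brackets), with Gata4 CKO in red above control in blue. Axoneme genes lie at 0.19, 0.39 and 0.43 in Gata4 CKO and at -0.03, -0.19 and 0.24 in control lungs, so Gata4 CKO 1 and control 3 overlap.

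Without Gata4 CKO 1 and control 3 together, a pair chosen after the data were seen, edgeR called 45 axoneme genes as higher and 0 as lower, beside 12.8% and 12.7% of all tested genes, with a median log2 fold change of 0.56. The comparison is then Gata4 CKO 2 and 3, both numbered 4723, with controls 1 and 2, both numbered 4229, so that the genotype and the number cannot be told apart. Among the 3 libraries numbered 4229, a comparison of Gata4 CKO 1 alone with controls 1 and 2, the median log2 difference over axoneme genes was 0.30, and 61 of 85 were positive. With the number as a term in the fit, which rests on those 3 libraries, edgeR called 21 axoneme genes as higher and 7 as lower, beside 17.6% and 21.9% of all tested genes. With sample quality weights, limma-voom called 52 as higher and 1 as lower, beside 12.7% and 12.9%. The number 4723 holds Gata4 CKO libraries only and 4503 holds 1 control, so neither gives a value of its own.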

How the data were processed

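Each of 6 whole lungs gave 1 RNA-seq library, prepared with a stranded mRNA kit per the labels' protocols. The deposited table holds whole-number read counts per Ensembl gene without scaling, as its values and header show. Per the submitters' processing notes, STAR 2.7.10a, featureCounts 2.0.1, DESeq2 1.36.0, GRCm38 and mm10 were used, in roles the notes leave unstated. For the annotation release and the strand setting, the sources used here give nothing. Gene models (GENCODE mouse release M21, GRCm38) held 86 of the 87 axoneme genes, 16 of them under another name. Of these genes 38 share exon bases with another gene, and their reads may be divided in an unknown way.

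The filterByExpr filter of edgeR (smallest count 10, total 15) left 17075 genes. After TMM scaling, Gata4 CKO was compared with control over the 6 libraries with no covariate, by the robust quasi-likelihood test of edgeR 4.0.16 under R 4.3.3. Tests were two-sided, with Benjamini-Hochberg adjustment over every tested gene and a threshold of 0.05. The SE was taken as the log2 fold change over the square root of F. CPM used TMM-scaled library sizes, and differences of single libraries from the control mean use log2 CPM (prior count 2). At 3 libraries per group, exact permutation of a single value reaches p = 0.1 at best. Total counts of 15156415 to 30848948 limit the precision of the lowest genes.

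The axoneme genes, the roles, the other gene lists and the markers were chosen with earlier results of these data known. Full statistics were given for Dnah5, Rsph1, Ccdc39, Tekt1, the 10 genes named by symbol and, for each direction, the 5 axoneme genes of smallest p. Genes of other lists were those of smallest p, up to 3 per list, and Foxj1. Other genes were named after their values were seen, among them Dnah12, Cfap44, Tekt3 and the Cfap genes. Some symbols in the table are newer than those of the lists, so 44 of 50 names of the motile cilium list and 14 of 15 of the centriole list were found.

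Alternatives were other scalings, filters and thresholds, DESeq2 1.42.0, limma-voom of limma 3.58.1 with and without quality weights, the replicate block, the label number as a term, globin genes left out, a spline offset for transcript length and GC (5 degrees of freedom), and each library left out in turn. The pair of libraries left out together, and the offset and DESeq2 without Gata4 CKO 1, were added after the data were seen. The pipeline was tested on simulated counts.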

Additional observations from a re-analysis of the deposited data

How the results depend on the processing

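The median log2 fold change of the axoneme genes was positive in all 22 alternatives, between 0.26 and 0.56, and the excess of summed CPM in Gata4 CKO was 294 to 499 CPM over its alternatives, against 371 CPM with all libraries under TMM. Counts of called genes depended on the test and the libraries. Over all genes, edgeR called 0, against 127 by DESeq2, 4375 by limma-voom with quality weights, 7312 with the label number as a term, 4389 without both Gata4 CKO 1 and control 3, 40 with the length and GC offset and Gata4 CKO 1 left out, and 1691 by DESeq2 without Gata4 CKO 1. With single libraries left out the count ran from 0 to 115. For the axoneme genes the counts were 0 in edgeR, 1 in DESeq2, 53 with quality weights (52 higher), 28 with the label number as a term (21 higher), 45 without the pair and 19 by DESeq2 without Gata4 CKO 1. The quality weights gave Gata4 CKO 1 a weight of 0.088 and Gata4 CKO 3 a weight of 3.55. The label number as a term leaves the genotype effect to Gata4 CKO 1 against controls 1 and 2. In the other alternatives both counts were 0.

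Signs of single genes changed in few settings. With the label number as a term, Dnah5 had -0.88 (edgeR adjusted p = 0.000491), Ccdc39 -0.37 (edgeR adjusted p = 0.0291), Spag17 -0.20 and Dnaaf10 0.020. Ccno had -0.034 without the pair and -0.059 by DESeq2 without Gata4 CKO 1, and Deup1 had 0.10 with quality weights and 0.055 by DESeq2 without Gata4 CKO 1. With single libraries left out, Mcidas ran from -0.41 to 0.00997, Ccno from -0.061 to 0.58, Deup1 from -0.29 to 0.082, Cfap36 from -0.10 to 0.015 and Dnaaf10 from -0.12 to 0.0026. The causes were not tested.

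Replicate numbers occur in both groups, and the deviations from the group mean of libraries with the same number correlated at 0.11, -0.30 and 0.12. Deviations within a group of 3 libraries are not independent, so these values cannot settle whether the numbers pair embryos. With the replicate block, edgeR called 0 genes and 0 axoneme genes, and the median log2 fold change of the axoneme genes was 0.34. Replicate 1 of Gata4 CKO correlated best with control 2, replicate 2 with control 3, and replicate 3 with control 3.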

Other observations

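Some axoneme genes are known mainly from testis. Tekt5 had 10.8, 5.49 and 6.74 CPM in Gata4 CKO and 8.12, 9.50 and 7.07 CPM in control lungs, and Dnah8 had 30.3, 24.6 and 23.9 CPM in Gata4 CKO and 23.4, 31.7 and 24.4 CPM in control lungs. The groups overlapped in both genes. Among the 13 axoneme genes with transcripts of 10 kb and over, the library Gata4 CKO 1 lay below every control in 6 cases (46.2%), against 345 of the 390 tested genes of that length (88.5%), while Gata4 CKO 2 and 3 both lay above every control in 7 cases (53.8%), against 169 of the 390 (43.3%).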
